A study of Mus musculus with 12 samples.

Results

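Rpl3l and Rpl39l are genes for ribosomal proteins of the large subunit that are known from particular tissues. Each has a widely expressed relative, Rpl3 and Rpl39. They are 2 of the 5764 genes in a table of RNA pulled down with tagged ribosomes from mouse hypothalamus. Both were chosen by their levels per library and by the difference between the 2 groups of the study, so every value of that difference given here describes how they were chosen, and no test of it is given.

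Ribosomal proteins are, with few exceptions, made in all cells from single-copy genes. A few have paralogs, second genes with a similar product, that are active in 1 or a few tissues and whose protein takes the place of the common form in the ribosome. Rpl3, the common form of Rpl3l, reaches toward the catalytic centre of the large subunit, and Rpl3l stands in for it in adult heart and skeletal muscle. Rpl39 lines the tunnel through which the new protein leaves the ribosome, and Rpl39l is its counterpart in male germ cells.

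The SENS mice (6 libraries) sensed standard chow through wire mesh without being able to eat it, and the NEO mice they were set against (6 libraries) met wooden pins behind mesh. Exposure lasted 10 min per the labels for SENS and per the design text for both groups. All were POMCRiboTag mice, all had been fasted for 16 h, and all were tested at about the same time of day. In RiboTag lines an HA tag sits on Rpl22, itself a protein of the large subunit, in cells with a history of Cre activity, here cells of the POMC lineage, so the pull-down takes RNA bound to ribosomes that carry tagged Rpl22. Dissections were enriched for the arcuate nucleus. Mice were housed in pairs or triplets, and neither their age and sex nor whether each library came from 1 mouse is given in the sources used here. The 12 libraries include neither input RNA nor a pull-down from untagged mice, so RNA that stuck to the beads cannot be told apart from RNA of tagged ribosomes. In bulk RNA such as this, fewer cells of a type and less RNA per cell cannot be told apart either.

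The level of a gene is given in CPM, which scales the reads over the table's genes to the same sum in every library, and in reads, recovered from the worth of 1 read in each library. The libraries held 8619 to 18299 such reads in SENS and 6901 to 11139 in NEO, so 1 read was worth 54.6 to 116 CPM in SENS and 89.8 to 145 CPM in NEO. A value of 0 allows up to 3 reads. Most genes here are thinly read: the median gene has 9 reads when the 12 libraries are added up. None of 7 markers of POMC neurons and 3 of AgRP neurons was among its genes, so the labelled cell type could not be checked here. One library stood apart: SENS 1 held reads of 307 genes that no other library had, against 38 to 132 such genes in each of the other libraries. Of 4 pituitary hormone genes in the table, SENS 4 held 52 of the 53 reads of Prl (prolactin) and 33 of the 36 of Gh (growth hormone). The other 2 were highest elsewhere: Tshb had 31 reads in SENS 3 and 15 in SENS 4, and Lhb, read in all 12 libraries, 21 in SENS 6 and 5 in SENS 4. Values without SENS 1 and without SENS 4 are given below.

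Rpl3l lies on the plus strand of chromosome 17, from 24727826 to 24736143 (GRCm38.p6), and Rpl39l on the plus strand of chromosome 16, from 10170197 to 10174911. No other RefSeq gene overlaps either of them. The nearest neighbours of Rpl3l are Ndufb10, 3402 bases before it, and Msrb1, 449 bases after it. Atf7ip2 begins 17737 bases after the end of Rpl39l. Rpl39, the common relative of Rpl39l, is on chromosome X, and Rpl3 on chromosome 15. The sequences around the start sites are shown because the paralogs differ there in their number of CpG dinucleotides and in motifs. Each window, from RefSeq on GRCm38.p6, runs 5′ to 3′ on the gene's strand with 250 bases before the start site and 50 from it on. Capitals mark matches on either strand to TATAAA, to the E-box CANNTG, to the GC box GGGCGG or to CCGGAA, the core of sites for ETS factors.
Rpl3l, chr17:24727576-24727875, plus strand: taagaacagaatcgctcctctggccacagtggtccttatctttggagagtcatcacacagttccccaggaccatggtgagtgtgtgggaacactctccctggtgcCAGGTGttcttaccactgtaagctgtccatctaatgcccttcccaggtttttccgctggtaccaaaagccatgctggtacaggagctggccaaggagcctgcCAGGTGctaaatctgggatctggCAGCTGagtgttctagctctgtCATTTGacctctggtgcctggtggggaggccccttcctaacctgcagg
Rpl39l, chr16:10169978-10170277, plus strand: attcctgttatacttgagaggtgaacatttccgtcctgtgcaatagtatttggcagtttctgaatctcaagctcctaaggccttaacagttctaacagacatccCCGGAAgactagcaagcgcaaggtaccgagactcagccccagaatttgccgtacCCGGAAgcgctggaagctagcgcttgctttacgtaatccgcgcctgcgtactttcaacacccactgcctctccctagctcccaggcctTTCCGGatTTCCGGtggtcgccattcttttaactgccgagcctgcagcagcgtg
Rpl39, chrX:37085173-37085472, minus strand: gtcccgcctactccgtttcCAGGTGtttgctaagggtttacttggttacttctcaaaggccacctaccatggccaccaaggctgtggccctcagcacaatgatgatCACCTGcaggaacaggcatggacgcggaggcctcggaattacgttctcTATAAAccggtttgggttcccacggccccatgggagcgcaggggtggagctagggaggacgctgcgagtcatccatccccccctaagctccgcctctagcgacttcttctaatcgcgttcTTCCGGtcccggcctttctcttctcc

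The Rpl3l window held 4 E-boxes and none of the other 3 motifs. At least 1 E-box occurred in 72.3% of 32851 RefSeq windows of this length, so a match by itself is common. A second start site of Rpl3l within the gene had 2 E-boxes and likewise none of the other 3 motifs. The Rpl39l window held no E-box and 4 matches to CCGGAA, a motif found at least once in 14.9% of all windows. The Rpl39 window had 1 CCGGAA, 2 E-boxes and 1 TATAAA, the last being present in 13.6% of windows. GGGCGG, present in 35.7% of windows, was in none of the 3 sequences. CpG dinucleotides numbered 2 in the Rpl3l window and 17 in each of the Rpl39l and Rpl39 windows, against a median of 7. A match is a string of letters and not a site shown to be used.

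Rpl3l was read in 1 of 6 SENS libraries and in all 6 NEO libraries. It was at 372 CPM (4 reads) in SENS 4 and at 0 in the other 5 SENS libraries. In NEO it had 489, 269, 1398, 1141, 1159 and 258 CPM in replicates 1 to 6, from 5, 3, 10, 9, 8 and 2 reads. NEO 3, NEO 4 and NEO 5 were high, and the groups overlapped, because SENS 4 lay above NEO 2 and NEO 6. The mean was 62.1 ± 152 CPM in SENS and 786 ± 505 CPM in NEO (SD, n = 6 each), so that the SENS mean was 0.0790 times the NEO mean.

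**Figure D1:**
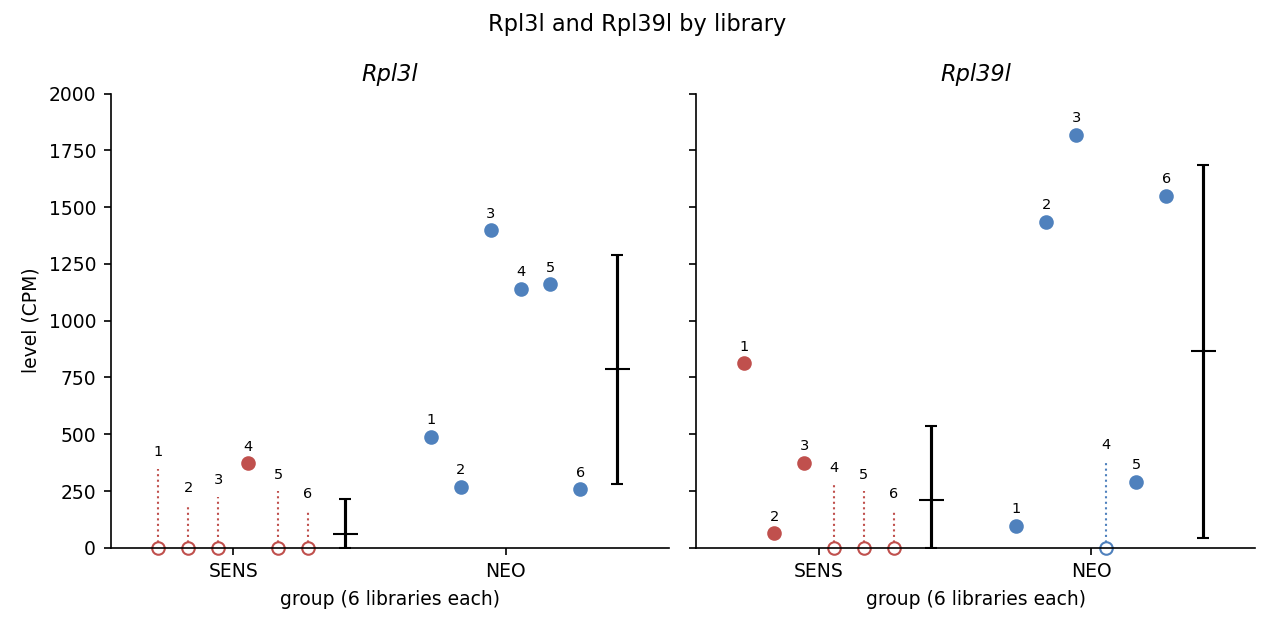
Level of Rpl3l (left) and Rpl39l (right) in CPM in each library of SENS and NEO; numbers are replicates, open circles are libraries at 0 with a dotted line up to the limit of 3 reads, and black bars are the mean ± SD with the lower arm cut at 0. Rpl3l was above 0 in 1 SENS and 6 NEO libraries, and Rpl39l in 3 SENS and 5 NEO libraries.

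How much the zeros of Rpl3l show depends on the library. The limit of 3 reads was 348 CPM in SENS 1, 192 in SENS 2, 225 in SENS 3, 249 in SENS 5 and 164 in SENS 6. The NEO values ran from 258 to 1398 CPM, so the limits of SENS 2, 3, 5 and 6 were under every NEO value, and that of SENS 1 was above the values of NEO 2 and NEO 6. Reads summed over each group gave 4 of 78624 in SENS, or 50.9 CPM, with a 95% Clopper-Pearson interval of 13.9 to 130 CPM. In NEO they gave 37 of 51054, or 725 CPM, with an interval of 510.3 to 999 CPM. These intervals cover counting error only. They leave out the spread between libraries, and reads here carry no molecular identifiers. Without SENS 4, which alone held the Rpl3l reads of SENS, the group had 0 of 67885 reads, which allows up to 44.2 CPM by the limit of 3 reads over the group and 54.3 CPM by the Clopper-Pearson interval. This value leaves out the only SENS library with reads, and no fold is given from it. The same library held the prolactin and growth hormone transcripts named above, and whether its Rpl3l reads have to do with them was not tested. Of 28 listed markers of other brain, pituitary and blood cells the table held 6, all named here. They were Prl, Gh, Tshb and Lhb, the leukocyte gene Ptprc and the globin gene Hba-a1. Their summed level ran from 641 to 10615 CPM in SENS, highest in SENS 4, and from 391 to 2195 CPM in NEO. Ptprc gave 107 of their 286 reads in SENS and 22 of 62 in NEO. None of the 6 was called by limma, with 3 higher and 3 lower values in SENS (median log2 fold change −0.09).

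Being above 0 in all 6 NEO libraries and in at most 1 SENS library was shared by 2 of 5764 genes (0.0347%), Rpl3l and the predicted gene Gm11190, which was named here after its values were seen. The mirror pattern, above 0 in all 6 SENS libraries and in at most 1 NEO library, was met by 4 genes (0.0694%). Since Rpl3l was chosen on this contrast, nothing is read from its place there. Most genes were at 0 in any one library, so the place of Rpl3l is given among the genes above 0 there. Of these, 50.4% had lower values than Rpl3l in SENS 4, against 31.3% in NEO 6 to 91.4% in NEO 5, so that Rpl3l ran from the lower to the upper part of the genes read.

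Rpl39l was read in 3 of 6 SENS libraries and in 5 of 6 NEO libraries. In SENS it had 812, 64.1 and 375 CPM in replicates 1 to 3, from 7, 1 and 5 reads, and 0 in replicates 4 to 6. In NEO it had 97.7, 1436, 1818, 0, 290 and 1549 CPM in replicates 1 to 6, from 1, 16, 13, 0, 2 and 12 reads. NEO 2, NEO 3 and NEO 6 lay above all other libraries and held 41 of the 44 NEO reads, while the other 3 NEO libraries fell within the range of SENS. The mean was 209 ± 330 CPM in SENS and 865 ± 821 CPM in NEO (SD, n = 6 each), and the SENS mean was 0.241 times the NEO mean. Summed reads were 13 of 78624 in SENS, or 165 CPM (95% Clopper-Pearson interval 88.0 to 283), and 44 of 51054 in NEO, or 862 CPM (626 to 1157).

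SENS 1 decided much of the SENS level of Rpl39l. It held 7 of the 13 SENS reads, and without it the SENS mean was 87.8 ± 163 CPM (SD, n = 5) and 0.101 times the NEO mean. Without SENS 4 the ratio was 0.289. Without both SENS 1 and SENS 4 it was 0.127. For Rpl3l the ratio was 0.0948 without SENS 1.

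Rpl39l needs more care than Rpl3l in one respect, because its product and its coding sequence are very like those of Rpl39, and retrocopies of ribosomal protein genes are common in the mouse genome. How reads that match several places were counted is not given in the sources used here. Whole reads made up 81.2% of the values above 0 (within 0.005 of a read), and the rest were fractions of a read. Rpl3l and Rpl39l had whole reads in each of the 7 and 8 libraries where they were above 0. With a value of 0 counted as whole, 77.3% of the 5143 genes above 0 somewhere had whole reads in all 12 libraries. Rpl3, Rpl39 and the tagged Rpl22 are not analysed here, and reads of a paralog were not set against those of its common form.

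The paralogs did not share a pattern over libraries. Both were above 0 in 5 libraries and both were at 0 in 2, SENS 5 and SENS 6. NEO 4 had 9 reads of Rpl3l and none of Rpl39l, and NEO 2 had 3 reads of Rpl3l and 16 of Rpl39l. In SENS no library had reads of both. Pearson's r of log2(CPM + 1) between the genes was 0.18 over 12 libraries, which is given as a description, and the libraries share 1 scaling to a fixed sum. Levels were not compared between Rpl3l and Rpl39l, since transcript lengths were not used here.

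The library numbers in the labels were split here at their widest gaps into 3 ranges, each with as many SENS as NEO libraries. The labels do not give these ranges, and the next widest gap, from 1106 to 1116, was not split. For Rpl3l the difference of means, SENS minus NEO, was −489 CPM in the range 1046 to 1050 (1 library per group). It was −812 CPM in 1062 to 1074 (3 per group) and −709 CPM in 1103 to 1116 (2 per group). Over all libraries it was −724 CPM. For Rpl39l it was 714 CPM in the first range, where SENS 1 meets NEO 1, −938 CPM in the second and −920 CPM in the third, against −657 CPM over all. The sign of Rpl39l thus turned in the range that holds SENS 1. Leaving out 1 library at a time kept both differences below 0, between −829 and −601 CPM for Rpl3l and between −830 and −466 CPM for Rpl39l.

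**Figure D2:**
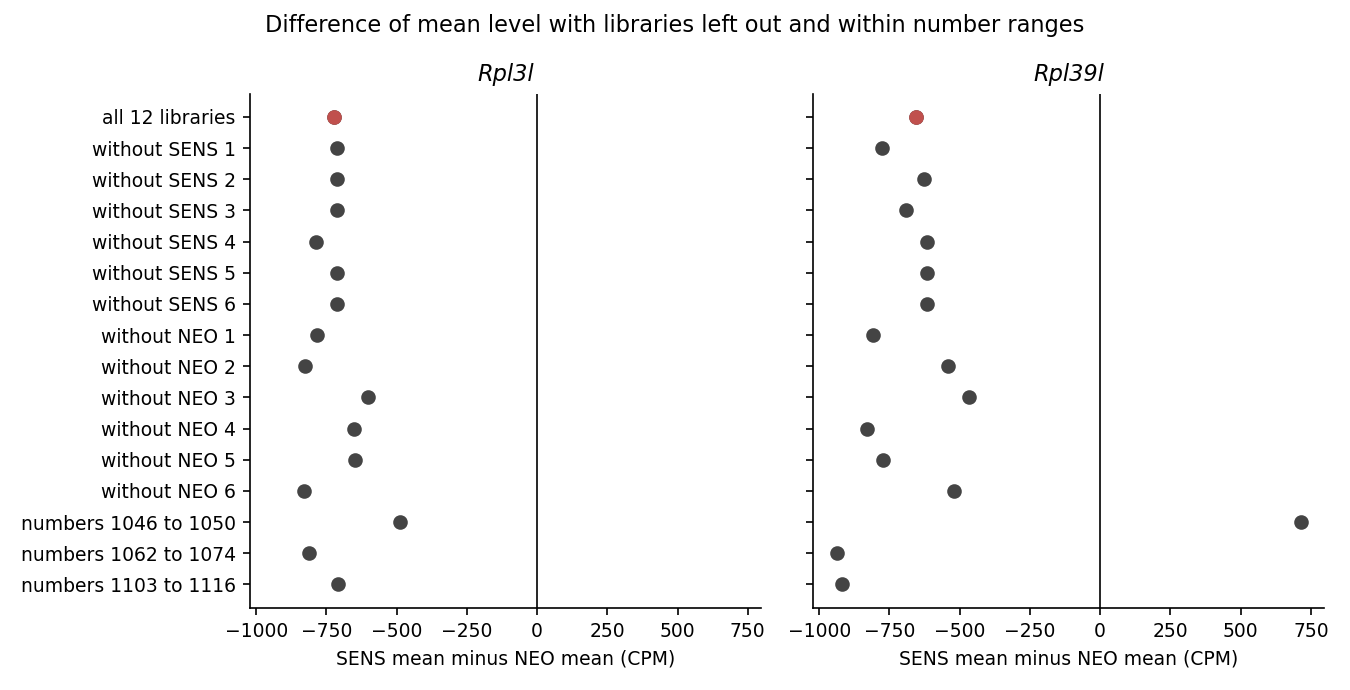
Difference of the mean level, SENS minus NEO, in CPM for Rpl3l (left) and Rpl39l (right), over all 12 libraries (red), with each library left out, and within each range of library numbers (black). All points lie below 0 but one, Rpl39l in the range 1046 to 1050, at 714 CPM.

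On the log2(CPM + 1) scale the fold change of SENS over NEO was −7.88 (SE 2.47) for Rpl3l and −3.75 (SE 2.35) for Rpl39l in a limma fit to all genes. These values come largely from libraries at 0 and are far from the ratio of the means. Among the 5141 genes fitted, whose mean reached 1 CPM, the median log2 fold change was 0.39 and the median SE was 1.82. Of these genes, 1 had a log2 fold change below that of Rpl3l and 123 had one below that of Rpl39l. At an adjusted p under 0.05 limma called 0 of 5141 genes (0%), and 189 had an unadjusted p under 0.05, with 94 higher and 95 lower values in SENS. Where the labels do not say that libraries came from separate mice, such p-values describe the spread among these 12 libraries, which may be technical.

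**Figure D3:**
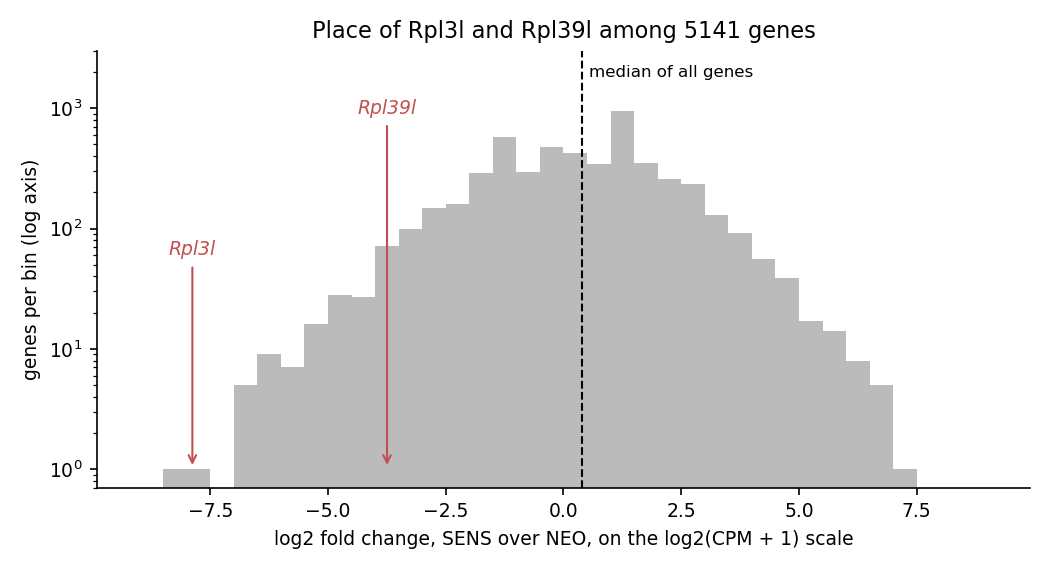
Number of genes (log axis) by log2 fold change of SENS over NEO on the log2(CPM + 1) scale, in bins of 0.5, for the 5141 genes fitted; the dashed line is the median of all genes, 0.39. Rpl3l, at −7.88, lies at the lower edge, and Rpl39l, at −3.75, in the lower tail.

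Other genes of the translation machinery were almost absent from this table. Of 15 listed ribosomal protein paralogs and processed copies the table held Rpl3l and Rpl39l alone. It held none of 79 common cytosolic ribosomal protein genes and no gene for a mitochondrial ribosomal protein. Of 62 translation factors and their paralogs it held 3, all relatives of the poly(A)-binding protein. Pabpc4l had 487 ± 501 CPM in SENS and 503 ± 562 CPM in NEO (SD, n = 6 each), with reads in 4 and 5 libraries. Pabpc2, a retrocopy known from testis, had 9 reads in SENS, all in SENS 1 and SENS 2, and none in NEO. Pabpc6 had 4 reads, all in SENS 1. Of 50 ribosome biogenesis genes, Npm2, a histone chaperone of the oocyte related to nucleolar Npm1, had 298 ± 279 CPM in SENS and 169 ± 247 CPM in NEO, and Ubtfl1 was listed at 0 in every library. None of the 4 genes that could be tested was called by limma (adjusted p = 0.745 to 0.844).

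Rpl3l was next set beside genes of striated muscle, the tissue it is known from. Of 102 muscle markers the table held 46. None of the 42 that could be tested was called; 22 had higher and 20 lower values in SENS, with a median log2 fold change of 0.24 beside 0.39 for all genes. Without SENS 4 the count was 17 higher and 23 lower, with a median of −0.17 beside 0.41. Their summed level ran from 6700 to 17945 CPM in SENS (median 10392) and from 7864 to 20875 CPM in NEO (median 11286). The 2 ranges overlapped over most of their length. NEO 1, with the highest sum, had 5 reads of Rpl3l, and NEO 4, with the lowest sum in NEO, had 9. SENS 2 and SENS 6, with the highest sums in SENS, had none, but few genes made up much of those sums. Xirp1 and Xirp2, named after their values were seen, had 54 and 56 of the 287.75 muscle marker reads of SENS 6. In SENS 2, Xirp1 had 49 of 279.75. Whether muscle transcripts have a part in the Rpl3l reads was not tested.

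The 4 muscle markers with the highest mean level all had a lower mean CPM in SENS than in NEO, with wide SDs. On the log2 scale Tnnc2 had a fold change of 0.17. Of all 42 muscle markers tested, 22 had higher and 20 lower values in SENS. Mstn, which encodes the growth inhibitor myostatin, had 562 ± 665 CPM in SENS and 1480 ± 945 CPM in NEO (SD, n = 6 each). Tnnc2, the calcium sensor of fast troponin, had 400.0 ± 498 and 819.9 ± 1056 CPM in SENS and NEO, with 45 of its 50 NEO reads in NEO 1 and NEO 2. Casq1, which binds calcium in the sarcoplasmic reticulum, was read in all 12 libraries, at 434 ± 329 CPM in SENS and 701 ± 437 CPM in NEO. Sgca, a subunit of the sarcoglycan complex of the muscle membrane, had 480 ± 438 CPM in SENS and 650.0 ± 541 CPM in NEO. Lmod2, Lmod3, Mybpc3 and Myoz1, all genes of the contractile apparatus and named after their values were seen, were at 0 in every library.

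Rpl39l was set beside genes of male germ cells, and here SENS 1 stood out. Of 67 germ cell markers the table held 38, and 31 of these had reads in SENS 1, against 6 to 13 in each other library. SENS 1 was the only library with reads for 12 of them. Their summed level was 35309 CPM in SENS 1 and between 2422 and 5636 CPM in the other SENS libraries, against 3811 to 6131 CPM in NEO. The genes behind this sum are those of spermatids: Prm2, a protamine that packs sperm DNA, had 65 reads in SENS 1 and 2 in all other libraries together, those in NEO 2. The transition protein genes Tnp1 and Tnp2 had 59 and 35 reads in SENS 1, and elsewhere only Tnp1 was read, with 1 read in NEO 2; both were named after their values were seen. The 7 Rpl39l reads of SENS 1 therefore came from a library rich in transcripts of the cell type that Rpl39l is known from, and the part of these transcripts in its level was not tested.

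The libraries with most Rpl39l reads were other ones. NEO 2, NEO 3 and NEO 6 had 16, 13 and 12 reads of Rpl39l, and their germ cell markers summed to 4099, 5686 and 4475 CPM, within the range of the other NEO libraries. Of Prm2, Tnp1 and Tnp2, NEO 2 had 2 reads of Prm2 and 1 of Tnp1, the only reads of these genes outside SENS 1, and NEO 3 and NEO 6 had none. Whether germ cell transcripts have a part in the NEO reads of Rpl39l was not tested. Other germ cell markers were spread over libraries: Tssk3, a testis kinase gene, had 372 ± 505 CPM in SENS and 1041 ± 412 CPM in NEO, and Gsg1, a germ cell gene, 1175 ± 1129 and 901 ± 666 CPM in SENS and NEO. Piwil4, of the pathway that silences transposons through small RNAs, had 403 ± 488 CPM in SENS and 821 ± 1045 CPM in NEO. Of the 36 germ cell markers that could be tested none was called, 31 had higher and 5 lower values in SENS (median log2 fold change 1.18 beside 0.39 for all genes), and SENS 1 held 36.1% of the reads of the whole list. This balance rested on SENS 1: without it 24 markers could be tested, of which 11 had higher and 13 lower values in SENS, with a median of −0.57 beside 0.32 for all genes.

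**Figure D4:**
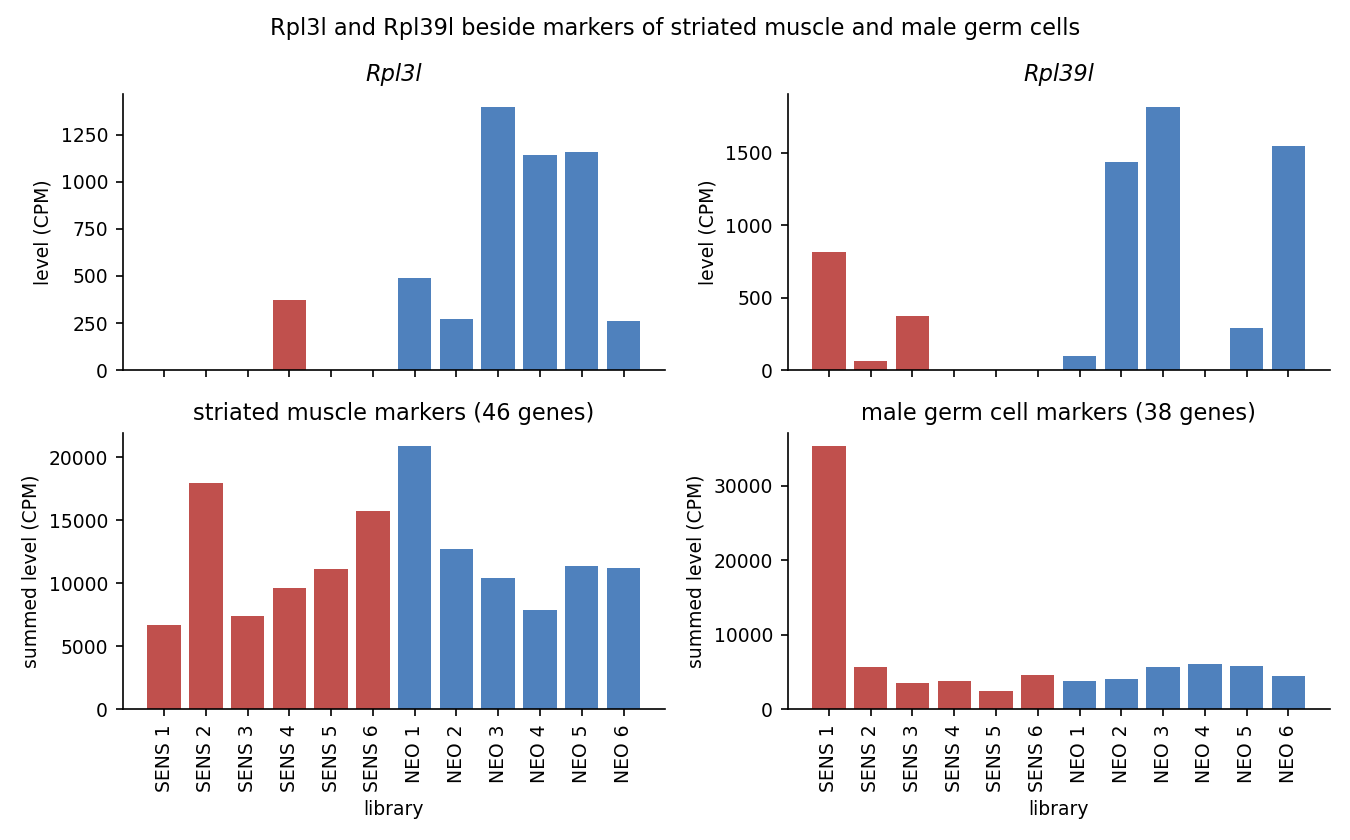
Level of Rpl3l and Rpl39l (top, CPM) and summed level of striated muscle and male germ cell markers (bottom, CPM) in each of 12 libraries, SENS in red and NEO in blue. The germ cell markers reach 35309 CPM in SENS 1 and at most 6131 CPM elsewhere, while muscle markers lie between 6700 and 20875 CPM.

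Rpl39l also belongs to a class of germ cell genes that duplicate a gene used by all cells. Of 50 such paralogs listed, the table held 31, Rpl39l among them. Of the other 30, 26 had reads in SENS 1 and 3 to 11 in each other library, and 12 were read in SENS 1 alone. These 12 include Ldhc and Pgk2, the sperm forms of lactate dehydrogenase and phosphoglycerate kinase, with 33 and 5 reads, and Pdha2, the testis form of a pyruvate dehydrogenase subunit, with 3. All 3 were named after their values were seen. Unlike these, Rpl39l had more reads in each of NEO 2, NEO 3 and NEO 6 than in SENS 1. Aldoart2, a retrocopy of aldolase A, had 493 ± 234 CPM in SENS and 1077 ± 574 CPM in NEO with fractional reads in both groups, so its value is uncertain. Pdcl2 had 388 ± 392 and 793 ± 793 CPM, and the calcineurin subunit gene Ppp3r2 532 ± 927 and 589 ± 603 CPM, in SENS and NEO. Of the 29 others that could be tested none was called, and 24 had higher and 5 lower values in SENS, with a median log2 fold change of 1.48 beside 0.39 for all genes. Without SENS 1, which alone held 12 of them, 17 could be tested, of which 10 had higher and 7 lower values, with a median of 0.39 beside 0.32 for all genes.

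The genes whose pattern over the 12 libraries was most like that of each paralog were ranked by Pearson's r of log2(CPM + 1) among 1930 genes above 0 in at least 4 libraries, leaving out predicted (Gm) and Rik symbols. For Rpl3l they were Cks1brt, with r = 0.89, Tgm4 (0.87), Upk1a (0.87), Hbq1b (0.86) and AU015228 (0.86). Tgm4, a transglutaminase of the prostate, and Upk1a, a membrane protein of the bladder lining, matched it in having SENS reads in SENS 4 alone. Tgm4 had 4 reads in SENS and 24 in NEO, and Upk1a 5 and 40. Cks1brt, Hbq1b and AU015228 had reads in all 12 libraries, some of them fractions, so their values are uncertain. Cks1brt and AU015228 varied little in reads, from 2.45 to 5.3 and from 7 to 13. Their CPM therefore also follows the worth of 1 read, which ran from 54.6 CPM in SENS 6 to 145 CPM in NEO 5. The part of library depth in their r was not tested. For Rpl39l they were Awat2, with r = 0.91, Foxs1 (0.91), Slc5a4a (0.89), Mycs (0.85) and Lnp1 (0.79). The first 4 of these were at 0 in all 4 libraries where Rpl39l was at 0, namely SENS 4, SENS 5, SENS 6 and NEO 4, and all but Foxs1 were at 0 in at least 1 more. Foxs1, a forkhead transcription factor gene, had 33 reads in SENS, 23 of them in SENS 2, and 31 in NEO, so a high r went with a different balance of the groups. These are descriptions over few reads.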

How the data were processed

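RNA from anti-HA pull-downs of 6 SENS and 6 NEO libraries was reverse transcribed and amplified with a low-input kit, per the labels' protocols. The authors deposited 1 table of CPM values. Per the submitters' processing notes the tools were FastQC, HISAT2, featureCounts and edgeR, and the builds GRCm38 and mm10, without versions or roles. Not given in the sources used here are how the 5764 genes were selected, whether strand was used, and how multiply matching reads were counted. The most frequent value above 0 in a column was taken as 1 read. Since 81.2% of values came out whole, a count model was left aside. Genes whose mean reached 1 CPM were fitted with limma 3.58.1 in R 4.3.3 (log2(CPM + 1), variance trend, two-sided, Benjamini-Hochberg). The fit was first tested on simulated data, with criteria for passing only at a depth far above that of these libraries. How many true changes it finds at the real depth is not given here, so genes not called may still differ. Means, SDs, sums and Clopper-Pearson intervals were computed in Python 3.11.15. RefSeq tables of GRCm38.p6 held 99.4% of the symbols.

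The 2 genes and all gene lists were chosen with earlier results of these data known. Genes beside them were named by a written rule: every held gene of the ribosomal protein and translation factor lists, up to 4 per other list by mean CPM, and the 5 most correlated per paralog. Others are marked where named.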

Additional observations from a re-analysis of the deposited data

Results flagged for a closer look

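Libraries were singled out when the gap between the highest or lowest of 6 and its nearest neighbour took more of the group's range than Dixon's 95% criterion allows, which chance alone does for about 1 group in 20; 10 groups were examined. Rpl3l in SENS stood apart at 372 CPM in SENS 4, the other 5 libraries being at 0. Any gene read in 1 library of a group meets this criterion, and Rpl3l was chosen on these levels, so this entry describes where its reads lie and tests nothing. Among lists, the summed level of male germ cell markers in SENS stood apart at 35309 CPM in SENS 1, and that of germ cell paralogs of housekeeping genes at 18737 CPM in the same library. The summed level of striated muscle markers in NEO stood apart at 20875 CPM in NEO 1, where Rpl3l was at 489 CPM. This gap passed the criterion only narrowly.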

How the results depend on the processing

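The log2 fold change of Rpl3l moved most with the pseudocount: it was −10.65 with 0.1 CPM, −5.13 with 10 CPM and −2.54 with 100 CPM, because 5 SENS libraries are at 0. It kept its sign under all settings tried, as did that of Rpl39l, which tests nothing because both genes were chosen on this contrast. The filters on low values, the variance trend, the replicate block and the range of library numbers cannot change these estimates in this balanced design. Both stayed at −7.88 and −3.75 there. With 1 library left out it ran from −9.30 to −7.59 for Rpl3l and from −5.30 to −2.94 for Rpl39l. The difference of mean CPM of Rpl39l was 714 CPM within the library numbers 1046 to 1050, where each group has 1 library. Limma called 0 genes under every setting. The settings included a mean of at least 100 CPM, no filter, quantile scaling, no variance trend and each library left out. Unadjusted p-values under 0.05 numbered 132 of 2465 genes with the mean of at least 100 CPM and 249 of 5141 without the trend. These were the lowest and highest counts, from different numbers of genes tested. With the replicate number as a replicate block the log2 fold changes were −7.88 (SE 2.04) and −3.75 (SE 2.13) and 0 genes were called. Libraries with the same number hardly deviated together (r from −0.032 to 0.083), and only SENS 2 correlated best with its own number. The best match of each SENS library with any NEO library had r of 0.019 to 0.083. All these values are low, so the check cannot show whether libraries were paired. Libraries with the same replicate number also fall in the same range of library numbers. Leaving out both SENS 1 and SENS 4, and counting the marker lists without either, were added after the data were seen; without both, the log2 fold changes were −9.30 and −4.14. With 2 to 16 reads in most values above 0, depth sets the precision of every level given here.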
